A study of Mus musculus with 16 samples.

Results

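Pisd and Crls1 encode the enzymes that carry out the last steps of phosphatidylethanolamine and cardiolipin synthesis inside mitochondria, and their transcripts were read in liver of Lactb transgenic and wildtype mice. The members are these 2 genes of the 7413 genes that could be named on the array, and they were chosen by gene symbol, with 3 probes reading Pisd and 1 probe reading Crls1. Liver RNA came from 16 male mice, 7 Lactb transgenic and 9 FVB wildtype, each on an array of its own. All animals were 23 weeks old and had eaten chow with 4% fat until 11 weeks of age and chow with 6% fat from then on. The labels give neither the promoter that drives the transgene nor the number of founder lines, and with 0 probes named Lactb the level of the transgene product was not checked.

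Phosphatidylserine is made in the endoplasmic reticulum and carried to the mitochondrial inner membrane, where Pisd, the phosphatidylserine decarboxylase, turns it into phosphatidylethanolamine. Crls1, the cardiolipin synthase of the inner membrane, joins phosphatidylglycerol to CDP-diacylglycerol to form cardiolipin. These cone-shaped lipids shape the cristae and bind the respiratory chain complexes, which hepatocytes hold in large numbers. Lactb encodes a filament-forming, protease-like protein of the mitochondrial intermembrane space, and in human breast cancer cells LACTB was reported to lower the amount of the PISD enzyme. The arrays read transcripts only, so enzyme protein and lipids were not measured here.

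Intensities are the authors' background-subtracted values on a linear scale. A probe was called above background on an array when its intensity passed a limit of 17.1 to 32.5, set from that array's negative values. Across arrays 9907 to 11564 of 24048 probes passed that limit, and 11317 probes that passed on at least 6 arrays were tested. The hepatocyte markers Apoa1, Serpina1a and Trf were above background on all 16 arrays. The number of arrays limits the precision, and in whole liver fewer cells of a type and less RNA per cell cannot be told apart. Nothing in the labels says how the animals were bred or housed, so p-values measure the spread between these 16 arrays.

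The Crls1 transcript had a slightly higher mean in transgenic liver, with groups that overlapped. The Crls1 probe (scl0066586.2_90-S) was above background on all 16 arrays, and its level lay at the 77.6th percentile of the tested probes. In the 7 transgenic animals its intensity ran from 483.9 through a median of 571.9 to 807.7. In the 9 wildtype animals it ran from 402.4 through a median of 556.9 to 686.4. Transgenic replicates 5 and 6, at 777.1 and 807.7, were above every wildtype animal, and 3 wildtype animals were below every transgenic one.

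Mean intensity of Crls1 was 616 ± 129 (SD, n = 7) in transgenic liver against 542 ± 97.5 (SD, n = 9) in wildtype liver, a ratio of 1.14. After normalization, in which every array is given the same distribution of log2 values, the level was 9.35 ± 0.23 (SD, n = 7) against 9.21 ± 0.17 (SD, n = 9) on the log2 scale. The difference of 0.15 (SE 0.099, 95% interval -0.060 to 0.36) did not pass limma's test over all probes (adjusted p = 0.932), and 5 of 7 transgenic animals lay above the wildtype mean. An exact permutation test over the 11440 ways of drawing 7 of 16 animals gave a two-sided p = 0.162. As a fold of transgenic over wildtype, the interval ran from 0.959 to 1.28. Without transgenic replicate 5 the difference was 0.093, and without transgenic replicate 6 it was 0.097.

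**Figure D1:**
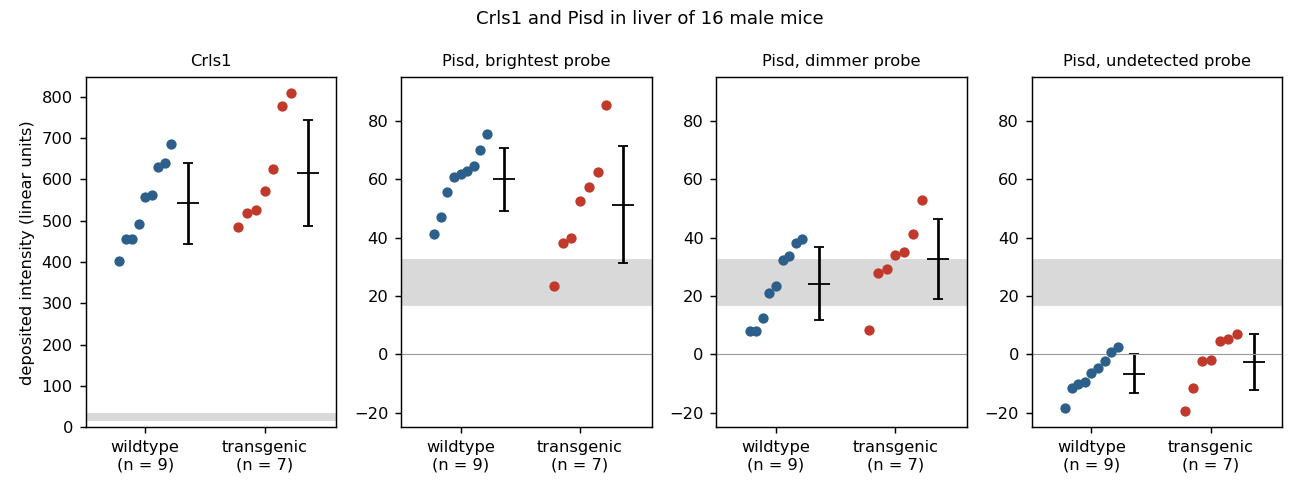
Deposited intensity (linear units) of the Crls1 probe and the 3 Pisd probes in 9 wildtype and 7 transgenic livers. Points are animals sorted by value, black bars are mean ± SD, and the grey band is the range of the detection limit over arrays (17.1 to 32.5). Crls1 lies far above the band, the brightest Pisd probe just above it, and the undetected Pisd probe around 0.

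Pisd was dim on these arrays, and the differences of its tested probes, neither of which passed the test, had opposite signs. The brightest probe (scl00320951.1_53-S) was above background on 15 of 16 arrays, at the 31.9th percentile of level among tested probes. Its intensity ran from 23.3 through a median of 52.4 to 85.4 in transgenic and from 41.4 through a median of 61.7 to 75.6 in wildtype animals. Transgenic replicates 1, 7 and 2, at 23.3, 38.2 and 40.0, were below every wildtype animal, while transgenic replicate 6 at 85.4 had the highest intensity of all. The array of transgenic replicate 1 is the one on which this probe was not above background.

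Mean intensity of this Pisd probe was 51.3 ± 20.1 (SD, n = 7) in transgenic liver against 60.0 ± 10.7 (SD, n = 9) in wildtype liver, a ratio of 0.856. The noise SD of single arrays was 10.4 to 19.7 units, about as large as the spread between animals. On the log2 scale the level was 6.61 ± 0.24 (SD, n = 7) against 6.80 ± 0.12 (SD, n = 9). The difference of -0.19 (SE 0.092, 95% interval -0.38 to 0.0065) did not pass limma's test over all probes (adjusted p = 0.932), with 6 of 7 transgenic animals below the wildtype mean. The exact permutation test gave a two-sided p = 0.0551. Without transgenic replicate 1 the difference was -0.12, and with intensities under 16 set to 16 in place of normexp it was -0.40. The lower end of the interval is a fold of 0.767. For a probe this dim it understates the range of RNA folds, because a constant of 16 added before the log compresses low values.

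Read against all probes, no difference of Pisd or Crls1 was called, though the unadjusted p of the brightest Pisd probe was among the smaller ones. Limma called 0 of 11317 probes at an adjusted p under 0.05 (0%), and 332 had an unadjusted p under 0.05 (2.93%), among them 0 of the 3 tested probes of Pisd and Crls1. A p as small as that of the brightest Pisd probe was found for 3.52% of probes, and one as small as that of Crls1 for 13.5%. The size of the Pisd difference lay at the 86.1st percentile and that of Crls1 at the 78.5th.

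The dimmer Pisd probe (scl0320951.8_63-S) gave a difference of the opposite sign. It was above background on 10 of 16 arrays, 6 of 7 transgenic and 4 of 9 wildtype. Its intensity ran from 8.4 through a median of 33.9 to 52.8 in transgenic animals. In wildtype animals it ran from 8.1 through a median of 23.6 to 39.7. The ranges overlapped, and 6 of 7 transgenic animals lay above the wildtype mean on the log2 scale. Transgenic replicate 1 had the highest value here, 52.8, and the lowest value on the brightest probe.

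The log2 difference of the dimmer probe was 0.14 (SE 0.13, 95% interval -0.13 to 0.41), which did not pass limma's test (adjusted p = 0.932; exact permutation two-sided p = 0.318). It was 0.073 without transgenic replicate 1, 0.22 without transgenic replicate 2, and -0.012 with the number in the animals' titles as a fixed block. That block leaves the genotype difference to the animals whose number occurs in both genotypes, transgenic replicates 2 to 6 and wildtype replicates 3, 8 and 9. Averaging both probes gave a Pisd difference of -0.025 (SE 0.076). The last Pisd probe (scl0320951.1_277-S) was above background on 0 of 16 arrays, with intensities from -19.4 to 6.9, and was not tested. The sequences of the probes are not in the sources used here, so which Pisd transcript each probe reads, or whether one reads the transcribed Pisd pseudogenes Pisd-ps1, Pisd-ps2 and Pisd-ps3, was not tested. No other probe (0 probes) carried the name of one of these copies.

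By r this disagreement was uncommon, though much of that rests on 1 animal, and by sign it was ordinary. The levels of both tested Pisd probes had a Pearson r of -0.35 over the 16 arrays. Transgenic replicate 1 weighs most in it, at 6.21 on the brightest probe, not above background, and 6.75 on the dimmer one. The r without this animal was not computed. Among 395 genes with at least 2 tested probes the median r of the brightest pair was 0.41, and 4.56% had an r as low as that of Pisd. These pairs were not matched for level, and both Pisd probes were dim. The sign of the genotype difference was split between the probes in 124 of these genes (31.4%). These correlations are descriptions over arrays that share normalization and the main axis of variation.

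The genes around Pisd and Crls1 in the same pathways also showed no called difference. Of 73 genes on 6 lists of phospholipid and mitochondrial membrane genes, 29 had a named probe and 18, Pisd and Crls1 included, were measured well enough to be tested. Of these 18, 9 lay higher and 9 lower in transgenic liver, 0 passed at an adjusted p under 0.05, and 0 had an unadjusted p under 0.05. Their median log2 difference was -0.0042, against -0.0041 for all tested probes.

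Among genes that make phosphatidylserine and phosphatidylethanolamine, 5 of 11 were tested, with 3 means above and 2 below those of wildtype liver. Besides Pisd, the smallest p belonged to Ptdss2, a phosphatidylserine synthase that supplies the substrate of Pisd, with a log2 difference of -0.063 (SE 0.089). Selenoi, the ethanolamine phosphotransferase of the parallel route in the endoplasmic reticulum, differed by 0.058. Chkb, a choline and ethanolamine kinase, differed by 0.020, and Cept1, which completes both phosphatidylcholine and phosphatidylethanolamine, by 0.017. The list of phosphatidylcholine synthesis had 1 tested gene of 4, Pcyt1a, which makes CDP-choline at the rate-limiting step, at 0.075 (SE 0.097).

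Around Crls1, 5 of 14 genes of phosphatidic acid, phosphatidylglycerol and cardiolipin metabolism were tested. On the normalized log2 scale Crls1 was the 1 gene of the list with a higher mean, and 4 had a lower mean. Pnpla8, a phospholipase that trims mitochondrial phospholipids, differed by -0.13 (SE 0.080), and Taz, the tafazzin acyltransferase that remodels cardiolipin, by -0.087 (SE 0.079). Gpam, the mitochondrial glycerol-3-phosphate acyltransferase, differed by -0.23 with a wide error (SE 0.17) and was above background on 13 of 16 arrays. Pgs1, which makes the phosphatidylglycerol precursor of cardiolipin, differed by -0.017 but was above background on 8 of 16 arrays, and its mean deposited intensity was higher in transgenic liver (24.8 against 22.7). The 95% intervals of Taz and Pnpla8 ran from -0.25 to 0.079 and from -0.30 to 0.038.

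**Figure D2:**
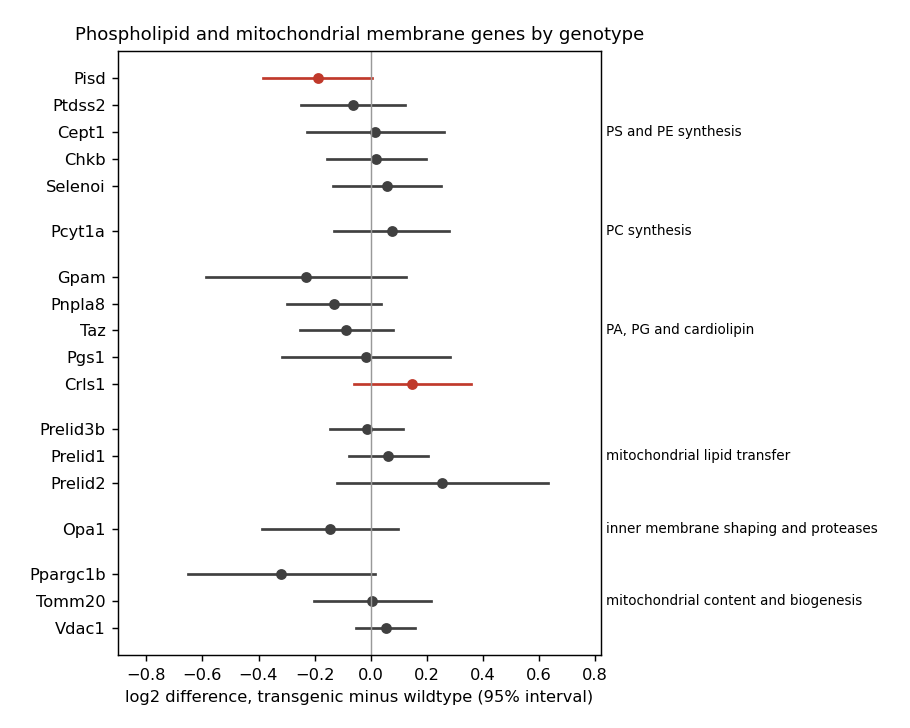
Log2 difference, transgenic minus wildtype, with its 95% interval from limma for the 18 tested genes of the 6 lists, Pisd and Crls1 in red. All intervals include 0, and the differences run from -0.32 for Ppargc1b to 0.26 for Prelid2.

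Carriers of lipid between the mitochondrial membranes gave 3 tested genes of 14. Prelid1, which moves phosphatidic acid to the inner membrane, differed by 0.063 (SE 0.067), and Prelid3b, which moves phosphatidylserine, by -0.014 (SE 0.062). Prelid2, of the same family, differed by 0.26 (SE 0.18) but was above background on 6 of 16 arrays. Of the 20 genes on the list of inner membrane shaping and proteases only Opa1, the inner membrane fusion GTPase, was tested, at -0.14 (SE 0.11). Opa1 was above background on 10 of 16 arrays. Named probes of Phb, Immt and Samm50 were above background on 0 of 16 arrays, although these genes are widely used in mitochondria, so an undetected probe here says little about its gene.

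Genes that track the amount of mitochondria gave 3 tested of 10. The outer membrane channel Vdac1 differed by 0.053 (SE 0.050) and the import receptor Tomm20 by 0.0057. Ppargc1b, a coactivator of mitochondrial genes, had the lowest difference of the 18 genes at -0.32 (SE 0.16, adjusted p = 0.932), with 4 wildtype animals above every transgenic one and 2 transgenic animals below every wildtype one.

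Among these livers the largest differences cut across genotype. Crls1 and the brightest Pisd probe followed them about as much as a typical probe, and the dimmer Pisd probe hardly at all. A principal component analysis of the tested probes, run without those of Pisd and Crls1, put 57.2% of the variance on its first axis. Its coordinate fell into separate groups of animals, 6 from -31.1 to -25.9 (2 transgenic), 8 from 16.6 to 25.6 (5 transgenic), and wildtype replicates 3 and 7 between them. The slope of Crls1 was 0.092 log2 units per SD of the coordinate and that of the brightest Pisd probe 0.065, given as a description with no test. The median absolute slope over all tested probes was 0.090, which puts Crls1 at the 51.4th and Pisd at the 38.3rd percentile. The dimmer Pisd probe had a slope of -0.0019, at the 1.24th percentile.

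The sign of this axis was set so that it rises with Gpnmb, and macrophage markers were among the probes that define it. Their slopes are therefore a description and no test. They were 2.74 for Gpnmb, a lysosomal glycoprotein, and 1.52 for lysozyme Lyz2. The growth factor receptor Csf1r had a slope of 0.23, at the 84.7th percentile of absolute slope. The slope of Cd68, also a tested macrophage marker, is not given here. All 4 tested macrophage markers of 6 had a higher mean in transgenic liver. The same held for 3 of 3 tested endothelial markers, 2 of 2 neutrophil markers, the cholangiocyte marker Spp1 (0.62) and the 1 tested adipocyte marker. Means were lower for 2 of 3 tested hepatocyte markers, 2 of 2 red cell markers and 2 of 2 pancreas markers. They were also lower for the 1 tested marker each of T cells and B cells. Stellate cell and fibroblast markers had 2 higher and 2 lower means. Some of the counted probes were dim, on both sides. Cxcr2 and Cd3e were above background on 9 of 16 arrays, Cel on 10, Fabp4 on 12 and Cela2a on 13. Hbb-b1 had mean intensities of 42.6 in transgenic and 46.3 in wildtype liver, against 8938.2 and 10327.5 for Hba-a1. Of all tested probes 48.7% were higher, and 0 of these markers passed the test. The summed intensity of the macrophage markers ran from 383.1 to 9570.7 in transgenic and from 388.2 to 6874.1 in wildtype animals. The part of macrophage content in the differences of Pisd and Crls1 was not tested. With the axis coordinate as a covariate the genotype difference was -0.24 (SE 0.084) for the brightest Pisd probe (limma unadjusted p = 0.0094) and 0.11 (SE 0.095) for Crls1. The unadjusted p of Pisd was also under 0.05 without normexp (limma, 0.0477) and without some single animals, at the lowest 0.0134 without transgenic replicate 6. Over all alternatives run, this one included, limma's adjusted p was at least 0.590 for Pisd and at least 0.332 for Crls1.

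**Figure D3:**
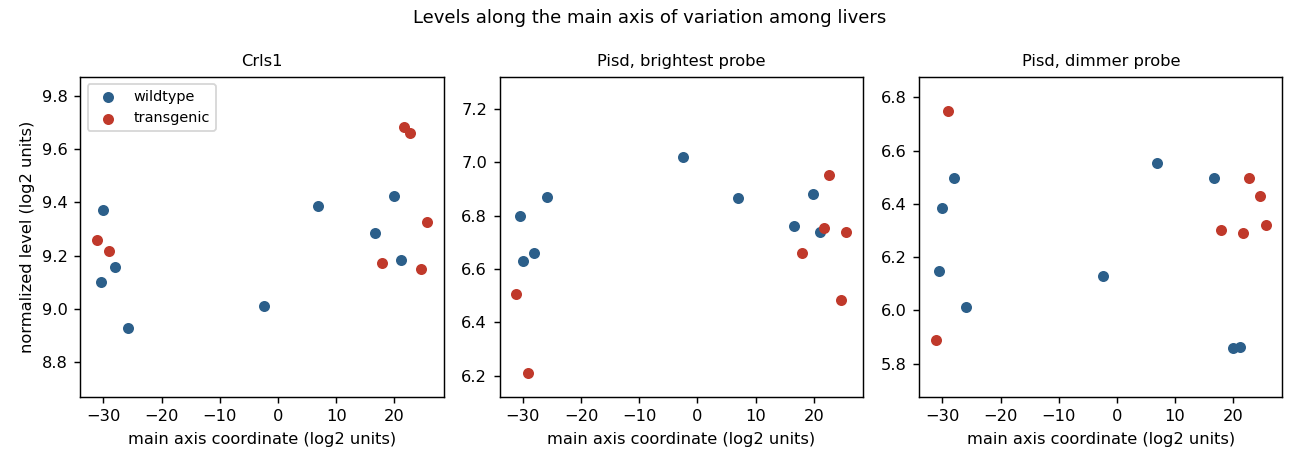
Normalized log2 level of Crls1 and both tested Pisd probes against the coordinate of each animal on the main axis of variation (log2 units), wildtype in blue and transgenic in red. The animals form a group at the lower end and a group at the upper end, and these groups overlap in the levels of Crls1 and of both Pisd probes.

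The relation of Crls1 to Pisd was read within each separate group of at least 6 animals, since a pooled correlation would mix the groups. In the 6 animals at the lower end, Pearson's r between the brightest Pisd probe and Crls1 was -0.57 (exact permutation p = 0.236, Benjamini-Hochberg adjusted over 2 relations 0.236) and Spearman's rho was -0.77 (exact permutation p = 0.103, adjusted 0.103). In the 8 animals at the upper end, r was 0.69 (exact permutation p = 0.0506, adjusted 0.101) and rho was 0.81 (exact permutation p = 0.0218, adjusted 0.0436). The adjustment was made separately for r and for rho, so it does not cover both measures together, and genotype was not fitted. Without the 2 animals farthest from the median of Pisd, r was -0.63 at the lower and 0.42 at the upper end, so the relation at the upper end rests in part on those animals. Of the 8 animals at the upper end, 3 transgenic animals share title number 12 and 2 wildtype animals share title number 10. Pairs of a genotype that share a number had deviations correlated at 0.22 to 0.52 over all tested probes, which these p-values leave out. The relation did not hold in the same direction in both groups, and the difference between the groups was not tested.

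Genes whose level followed Crls1 most closely were looked for among the 3970 other named genes, by Pearson r over 16 animals of what is left after genotype and the axis coordinate are fitted. The highest r, 0.90, belonged to Hadhb, the beta subunit of the trifunctional protein of mitochondrial fatty acid oxidation. Next came the RNA-binding protein Caprin1 (0.89), the splicing factor Rbm17 (0.88), the zinc finger gene Zfp317 (0.85) and the microtubule-severing ATPase Spast (0.82). With genotype alone fitted, r for Hadhb was 0.24, that for Caprin1 0.80 and that for Rbm17 0.80. A second probe of Zfp317 gave -0.16 and one of Spast 0.47.

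Among the lowest r with Crls1 were those of the inositol transporter Slc2a13 (-0.79), Tbx5 (-0.78), Zc3h13 (-0.76) and Rnf6 (-0.73). A best r of 0.90 is on the high side here. The best r of a named gene with any other had a median of 0.84, and that of Crls1 lay at the 92.8th percentile of named genes. These values are a description of 16 arrays, and the genes share arrays and normalization.

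**Figure D4:**
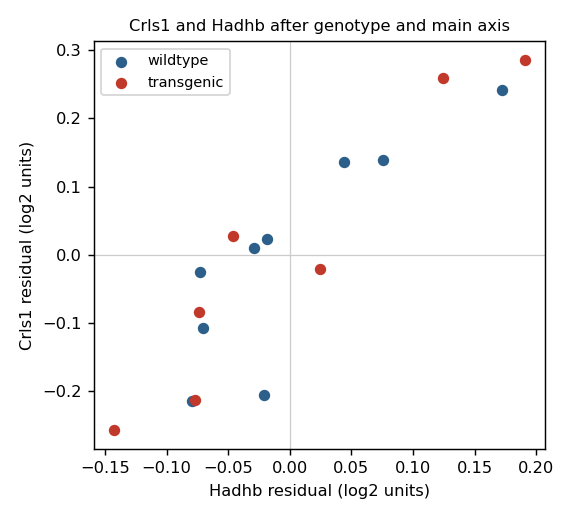
Residual log2 level of Crls1 against that of Hadhb in 16 livers after genotype and the axis coordinate are fitted, wildtype in blue and transgenic in red. Transgenic replicates 5 and 6 and wildtype replicate 2 lie highest on both, and transgenic replicate 7 lowest on both.

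The brightest Pisd probe had less close company. Its highest r belonged to Zfp62 (0.82), the peroxisomal fatty acyl transporter Abcd2 (0.81), the immunoglobulin receptor Pigr (0.77), Tmem51 (0.69) and the phosphatase Ptprf (0.68). Its lowest belonged to Rgs1 (-0.81), Serpina3n (-0.77), Fmnl3 (-0.76), Rpap3 (-0.74) and the sphingomyelinase Smpd2 (-0.72). With genotype alone fitted, r was 0.79 for Abcd2, of which another probe gave 0.53 in the fit with the axis, but 0.019 for Pigr. On the negative side it was 0.24 for Rgs1, -0.13 for Serpina3n, -0.039 for Fmnl3, -0.32 for Rpap3 and -0.41 for Smpd2, so the least alike genes depend on fitting the axis. The best r of this probe lay at the 32.8th percentile of named genes.

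The dimmer Pisd probe was followed by other genes. Among its highest r were those of the S6 kinase Rps6kb1 (0.80), Ssbp3 (0.74), Eif3e (0.74) and Emc1 (0.73), and its lowest belonged to Ets2 (-0.75), Ezr (-0.74), Krt34 (-0.73), Mtm1 (-0.73) and Rorb (-0.72). With genotype alone fitted, r was -0.24 for Ets2. The best r of this probe lay at the 19.6th percentile.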

How the data were processed

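Liver RNA of 16 mice was read on Illumina Mouse Ref-8 bead arrays, per the file headers. The deposited values are linear intensity, made by the authors with BeadStudio 1.5.1.3, per the submitters' processing notes. Background had been subtracted (30.0% to 33.8% of values below 0) and arrays brought to a mean of 331.4 to 333.5 by a method not given in the sources used. The further table has 128 per-sample columns named by chip position, which no label ties to animals, and was not used, so detection values and slides played no part.

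With limma 3.58.1 under R 4.3.3, intensities were background-corrected by normexp (offset 16), logged to base 2 and then quantile normalized. A probe was above background when it exceeded 1.645 times the root mean square of the array's negative values. Genotypes were compared with lmFit and eBayes, two-sided, Benjamini-Hochberg over 11317 probes, threshold 0.05, with no covariates. The fit was tested on simulated data. Probes were named by the number in their identifier, which for 8884 of 9523 (93.3%) is a gene identifier in a RefSeq table (GRCm38.p6), and 9 more by accession. A gene was read by its probe of highest mean. Named are Pisd and Crls1, their copies, list members of smallest p and the 5 genes of highest and of lowest r. Some of these genes are not reported here. List members beyond the 2 of smallest p were also named. Members and lists were chosen with earlier results of these data known. Exact permutation tests of genotype used all animals, and those of Pisd with Crls1 used the 6 or 8 animals of a group. Alternatives covered background correction, normalization, filter, title number, main axis, array weights, variance model, probes and single animals.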

Additional observations from a re-analysis of the deposited data

Results flagged for a closer look

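Of 38 sets examined (each tested probe of Pisd, Crls1 and the pathway genes in each genotype), 3 held an animal set apart from the others of its genotype by Dixon's criterion, which chance flags in about 1 set of 20. None of the 3 concerned Pisd or Crls1. Wildtype replicate 1 had a log2 level of Cept1 of 9.54, with the nearest wildtype animal at 9.82. Transgenic replicate 4 had a log2 level of Pgs1 of 5.24, a deposited intensity of -11.7 that is below background, with the nearest transgenic animal at 6.18. Transgenic replicate 2 had a log2 level of Prelid2 of 5.29, a deposited intensity of -13.9 that is below background, with the nearest transgenic animal at 6.02.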

How the results depend on the processing

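The genotype difference of the brightest Pisd probe kept its negative sign and stayed short of the adjusted threshold in all 11 alternatives that gave a value for it, from -0.40 (intensities under 16 set to 16, no normexp) to -0.10 (fixed block), with array weights at -0.11. The mean of both tested probes gave -0.025. That of Crls1 stayed positive and short of the threshold in 13 alternatives, from 0.11 to 0.38. Leaving out single animals gave -0.24 to -0.12 for Pisd, the smallest difference without transgenic replicate 1, and 0.093 to 0.18 for Crls1. The dimmer Pisd probe reversed to -0.012 with the title number as a fixed replicate block. Under that block Pisd was -0.10 and Crls1 0.38 (SE 0.15, unadjusted p = 0.0247, limma adjusted p = 0.332). Only title numbers 9, 12 and 13 hold both genotypes. With the block the genotype difference therefore rests on transgenic replicates 2 to 6 and wildtype replicates 3, 8 and 9, fewer animals than in the main fit. The cause of the larger Crls1 difference was not tested. A transgenic and a wildtype animal had the same title number in 5 pairs, whose deviations correlated at -0.47 to -0.13, while 6 pairs within a genotype had 0.22 to 0.52. Transgenic replicates 3 to 6 lay at 17.9 to 25.6 on the main axis. Their wildtype partners, replicates 8 and 9, lay at its other end, at -28.1 and -25.9. Pairs with different numbers were not compared, so whether a title number links animals of both genotypes was not tested. Limma called 0 probes and 0 pathway genes in the 12 alternatives in which they were counted (not for the mean of probes) and without any single animal. Probes with an unadjusted p under 0.05 numbered 95 to 1509 over the alternatives and 221 to 799 without single animals. With genotype alone fitted, 2 of the 5 most alike genes were shared for Crls1 and for each Pisd probe. Of the 5 least alike, 2 were shared for Crls1 and the dimmer Pisd probe and 0 for the brightest Pisd probe. The slide as a block was not run, and the brightest Pisd probe has no value on probes detected on all arrays. Dimness limits Pisd, whose probes lie near background.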
